A study of Mus musculus with 4 samples.

Results

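The layer 5 spots described here are 819 of 12994 spots under tissue, selected on their measured levels of Slc17a7, Fezf2, Parm1 and Deptor in 4 brain sections. A spot of the Visium array is a small printed area that captures RNA from all cells above it, so 1 spot can hold neurons, glia and vessels together. Within each section, spots with at least 2000 unique molecular identifiers (UMI, each standing for 1 captured RNA molecule or ligated probe) were kept, then those whose share of Slc17a7, the vesicular glutamate transporter of cortical excitatory neurons, lay above the section's median. The top 15% of these by the summed share of Fezf2, Parm1 and Deptor were taken as layer 5. Etv1, also a gene of the rule, was not used here because the feature lists carry no row for it. This gave 194 and 208 spots in the control sections 1 and 2, and 222 and 195 spots in the rNLS8 sections 1 and 2.

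The study compared rNLS8 mice with controls 3 weeks after doxycycline was withdrawn. rNLS8 mice carry a doxycycline-suppressed human TDP-43 without its nuclear localisation signal, driven in neurons by the neurofilament heavy chain promoter, so that withdrawal of the drug lets the protein build up in neuronal cytoplasm as in amyotrophic lateral sclerosis. Both groups are labelled as withdrawn from doxycycline, all mice were 11 weeks old, and the control genotype is given only as control. Each group had 1 section labelled female (section 1) and 1 labelled male (section 2), cut at 5 µm from formalin-fixed, paraffin-embedded brain. With 2 sections a group, the p-values below measure the spread between these sections only.

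Layer 5 is the main output layer of the neocortex. Its large extratelencephalic neurons, specified by the transcription factor Fezf2, project to the brainstem and spinal cord and include the upper motor neurons that degenerate in amyotrophic lateral sclerosis, while its intratelencephalic neurons project within the cortex and to the striatum. Layer 6 below sends axons to the thalamus, and layers 2 and 3 above connect cortical areas.

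The rule rests on few molecules. A member spot held a median of 4, 3, 3 and 3 UMI of the selecting genes in control sections 1 and 2 and rNLS8 sections 1 and 2, and 1.03%, 25.5%, 23.0% and 19.5% of members held a single one. The last member inside and the first spot outside stood at 442.4 and 441.6 CPM (UMI scaled to a common total) of the selecting genes in control section 1, at 340.7 and 340.4 in control section 2, at 268.9 and 267.6 in rNLS8 section 1, and at 314.3 and 311.9 in rNLS8 section 2. Over the chosen spots, Fezf2 stood at 307 and 293 CPM in the control sections and 235 and 300.1 in the rNLS8 sections, Parm1 at 156 to 160 in rNLS8 and higher in both controls, Deptor at 3.73 and 7.26 against 3.95 and 0.754, and Slc17a7 at 5700 and 3936 against 3728 and 4614. These 4 genes chose the spots and were left out of every sum and test that follows.

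Position and genes that the rule did not use bore out the label in part. At the top 15% used here, in all 4 sections the median distance to the nearest array position without tissue was shortest for upper-layer spots, chosen in the same way with Cux2, Lamp5, Calb1 and Rasgrf2, longer for layer 5 spots, and longest for layer 6 spots, chosen with Foxp2, Tle4, Syt6 and Rprm. At the top 25%, layer 6 spots lay nearer the edge than layer 5 spots in control section 2 (10.1 against 11.1 spot spacings) and rNLS8 section 2 (7.94 against 8.54). Part of that position depends on the tissue outline, which in control section 1 includes a wide rim of low counts. The layer 5 medians were 15.6, 10.8, 10.3 and 8.54 spot spacings in control sections 1 and 2 and rNLS8 sections 1 and 2. Those of the other Slc17a7-rich spots were 15.5, 10.5, 13.9 and 7 in the same order. The chosen spots clustered only loosely: 26.1% and 20.5% of a layer 5 spot's neighbours were layer 5 spots in the controls, and 18.7% and 18.5% in rNLS8. Among upper-layer spots that share was 42.8% and 40.3% in the controls against 25% and 16.5% in rNLS8. Layer 5 spots overlapped the upper-layer set by 5.67% to 11.3% and the layer 6 set by 14.9% to 16.7% of their number. With a set chosen in the same way by Bcl11b, Crym, Pcp4 and Npr3 they shared 17.0% and 17.8% in the controls. In rNLS8 that share was 12.2% and 15.4%. A random 15% of the Slc17a7-rich spots would share about 15%.

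Of 6 extratelencephalic marker genes with at least 50 UMI, 4 were higher in layer 5 spots than in the other Slc17a7-rich spots in all 4 sections. Crym, a thyroid hormone-binding protein, was higher by 0.31 to 0.74 on the log2(CPM + 1) scale, Pou3f1, a POU-domain transcription factor, by 0.29 to 0.43, and Lratd2 by 0.57 to 0.82. The near-projecting markers Lypd1 and Tshz2 were also higher in every section. Pcp4, a calmodulin-binding peptide abundant in deep-layer neurons, differed by only -0.01 to 0.28. Of 8 upper-layer markers, 4 were lower in all 4 sections (Cux1, Cux2, Calb1 and Rasgrf2). Layer 6 markers were not depleted: 2 of 8, Rprm and Ntsr1, were higher in layer 5 spots in all 4 sections, and none was lower in all 4. The spots are Fezf2- and Parm1-rich, with neighbouring layers mixed in and some members scattered, and are called layer 5 spots below for short. The share of them that lies in the deep cortex was not measured.

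**Figure D1:**
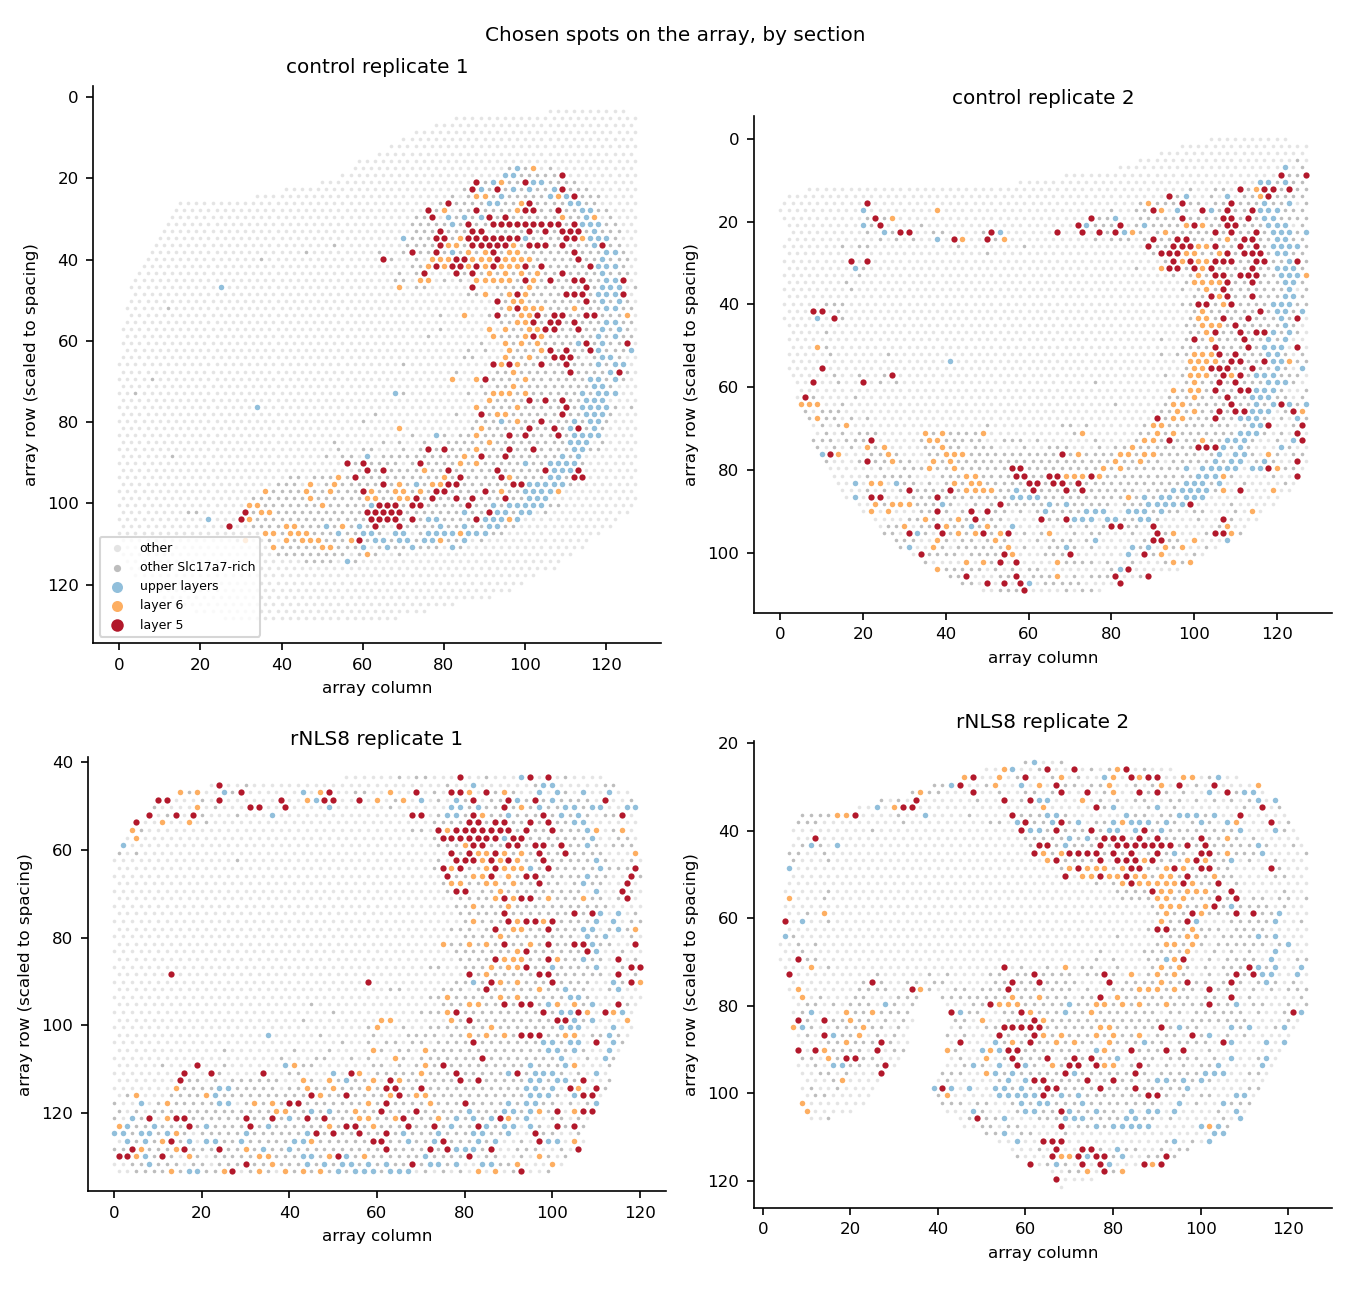
Map of the 4 sections on the Visium array (array column against array row, scaled to the spot spacing), with layer 5 spots in dark red, upper-layer spots in blue, layer 6 spots in orange, other Slc17a7-rich spots in dark grey and all other tissue in light grey. By median distance to the tissue edge, layer 5 spots lie between the upper-layer and layer 6 spots in each section, with scattered members. The upper-layer set is less compact in the rNLS8 sections (25% and 16.5% of neighbours in the set) than in the controls (42.8% and 40.3%).

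The summed layer 5 counts came to 1322623 and 1631787 UMI in the controls and 1997302 and 1306937 UMI in rNLS8. The median UMI per layer 5 spot was 6682 and 7874 in the controls and 10078 and 6274 in rNLS8, so depth did not separate the groups. Barcodes mark fixed array positions, and 3 to 27 layer 5 barcodes were shared between any pair of sections. The section labelled rNLS8 1, female, held 270 UMI of the 4 Y-linked genes Ddx3y, Eif2s3y, Kdm5d and Uty in its layer 5 spots. Control section 1, also labelled female, held 0, and the sections labelled male held 158 and 170. The rNLS8 section 1 thus goes against its sex label. By these counts control section 1 alone lacked Y-linked UMI, so sex was partly confounded with group. Counts of called list members without rNLS8 section 1 follow beside the lists that had calls. Of 59 named genes, 21 were no longer called without it, and of 58 that could be fitted without rNLS8 section 2, 32 were not, with no change of sign. The control sections differed from each other more than the rNLS8 sections did, with a chi-square of 5.48 per degree of freedom against 1.91 over the summed counts.

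Of 9835 genes tested in layer 5 spots with edgeR's quasi-likelihood test, 136 (1.38%) passed a Benjamini-Hochberg adjusted p of 0.05, of which 51 (0.519%) rose and 85 (0.864%) fell in rNLS8. Of the genes that rose, 23 of 51 were on the interferon, disease-associated microglia, complement and antigen presentation, or lysosome lists, and 23 were on no list. The interferon, disease-associated microglia, complement and lysosome lists held 14, 17, 9 and 22 of the 9835 genes tested. Of the genes that fell, 24 of 85 were on neuronal lists and 61 on no list. The share of all genes tested that is on neuronal lists was not counted, so 24 of 85 cannot be read as an excess of neuronal genes. In spots, a change in the number of cells of a type and a change in RNA per cell cannot be told apart. The unadjusted p was under 0.05 for 1659 genes, and the median log2 fold change of all genes tested was 0.01. The 2 groups did not overlap for 48.8% of all genes tested, so lack of overlap alone marks little here. The number of calls depended on the sections: 76 genes were called without rNLS8 section 1 (48 higher, 28 lower), 49 without rNLS8 section 2 (29 and 20), 990 without control section 1 and 2072 without control section 2, the lone section of a group being assumed to vary like the others. Of the 136 genes, 55 were called again without rNLS8 section 1, and all of the 135 that could be tested kept their sign. DESeq2 called 27 higher and 180 lower, gave an adjusted p to 77 of the 136 genes, and called 76 of those.

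Tardbp, the mouse gene for TDP-43, was listed at 0 UMI in both control sections and at 6.71 and 11.0 CPM (29 UMI in all) in the rNLS8 sections. That is at least 4.10-fold higher, taking 3 counts per control section as the floor (edgeR adjusted p = 0.0318). The gene is normally active in nearly all cells. No source used here says which transcript or probe these UMI came from.

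Among lists with at least 5 tested genes, the interferon genes had the highest median change in layer 5. Of 14 tested members of a 30-gene list of interferon-stimulated genes, 8 rose and none fell. The median log2 fold change was 1.96 against 0.01 for all genes tested. The filter on low counts left out 12 listed members. A gene near 0 in the controls can pass it only by being high in rNLS8, and has little room to fall. The median and the lack of falls are therefore partly set by the filter. The same limit holds for the complement, disease-associated microglia and leukocyte lists below, with 10, 7 and 14 left out. Bst2, the membrane protein tetherin that holds budding virus at the cell surface, stood at 6.52 and 8.09 CPM in the controls and at 65.7 and 96.5 CPM in rNLS8, a log2 fold change of 3.43 ± 0.32 (SE, adjusted p = 0.00107). Oasl2, a 2'-5' oligoadenylate synthetase-like antiviral protein, went from 4.07 and 3.11 to 39.3 and 55.6 CPM (3.70 ± 0.39, adjusted p = 0.00164). Both genes, named because they passed the test, stood above the controls in each rNLS8 section.

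Transcription factors of the pathway rose with its effectors. Irf9, the DNA-binding subunit of the type I interferon complex ISGF3, rose from 13.9 and 10.6 to 41.2 and 40.2 CPM, and Irf7, which amplifies interferon production, from 2.44 and 3.11 to 13.4 and 27.8 CPM, a call that is lost without rNLS8 section 2 (adjusted p = 0.389). Ifit1, which binds foreign 5' RNA ends, had 2 UMI in the controls and 45 in rNLS8, 18.5 times as many per UMI counted (95% counting interval 4.82 to 157). Usp18, the protease that removes ISG15 and damps interferon signalling, had 3 and 54 UMI, or 14.8 times as many (4.79 to 73.9). Ifi27 and Rtp4 were the other called members, with log2 fold changes of 1.45 and 2.16, and Ifi27 may share reads with its near-identical family members.

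The 6 members that did not pass were also higher in both rNLS8 sections than in either control, as were 2454 of all 9835 genes tested. Among them Cxcl10, a chemokine that attracts T cells, stood at 0.815 and 0 CPM in the controls and 6.71 and 38.7 CPM in rNLS8 (adjusted p = 0.0543). The list had 7 called members without rNLS8 section 1 and 4 without rNLS8 section 2, and DESeq2 gave none of its members an adjusted p. In spots with at least 2 layer 5 neighbours 1 of 6 tested members was called, and in thinned spots 3 of 4. Selection by Bcl11b, Crym, Pcp4 and Npr3 in place of the layer 5 genes gave 6. In upper-layer spots 7 of 14 tested members rose (median 1.68), where 1.07% of all genes did, and in layer 6 spots 9 of 16 (median 1.93), where 0.449% did.

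Interferon response elements, which ISGF3 binds, carry the core GAAANNGAAA. Of the 8 called interferon genes, 5 had an entry in the RefSeq promoter table (GRCm38.p6, from 250 bases before to 50 after the gene start), and 2 of these held the core on either strand, in 2 overlapping or neighbouring copies each. Of the interferon genes tested, called or not, 4 of 10 with an entry held it, the same 40% as among the called ones. Having the core thus did not set the called members apart. It was held by 3.34% of the 7784 tested genes with an entry, and by 3.44% of all 32851 promoters in the table. Short stretches of both promoters are shown in the direction of the gene, with the core in capitals, because these genes changed together with the others of the list. The Bst2 stretch is chr8:71537568-71537627 on the minus strand and begins its first core 130 bases before the gene start. The Ifit1 stretch is chr19:34640760-34640819 on the plus strand, with the core on the opposite strand, upstream of the start. The letters are a description of the reference and show no binding in these sections.
Bst2: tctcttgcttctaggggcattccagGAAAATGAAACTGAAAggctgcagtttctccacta
Ifit1: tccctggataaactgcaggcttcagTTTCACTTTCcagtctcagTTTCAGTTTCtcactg

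**Figure D2:**
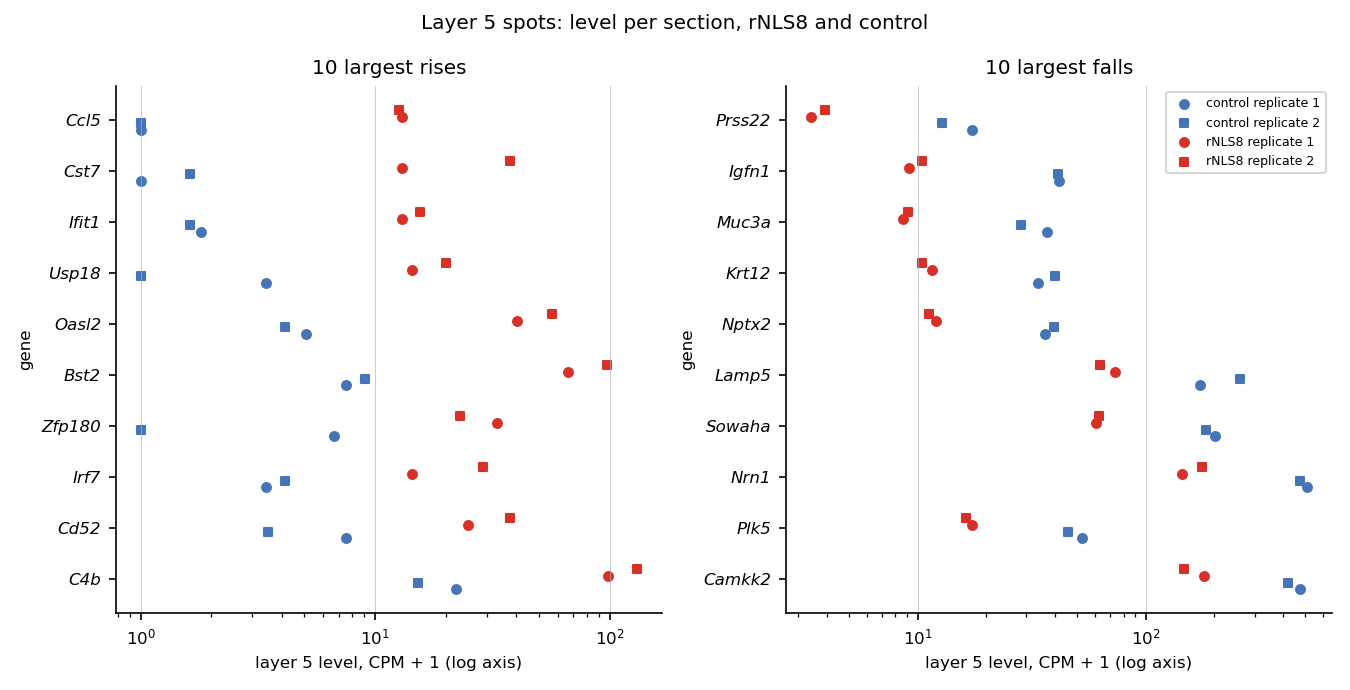
Level of the 10 genes with the largest rise (left) and the 10 with the largest fall (right) in layer 5 spots, in CPM + 1 on a log axis, 1 point per section, controls in blue and rNLS8 in red. In each of the 20 genes the 2 rNLS8 sections lie on 1 side of the 2 controls, as the choice of genes required.

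Antigen presentation and complement rose in layer 5 as well. Of 9 tested members of that list, 5 rose and none fell, with a median log2 fold change of 1.63. B2m, the invariant light chain of MHC class I, went from 42.4 and 75.9 CPM in the controls to 323 and 366 CPM in rNLS8 (2.52 ± 0.24, adjusted p = 0.00107). C1qa, C1qb and C1qc, the subunits of the first complement component, which microglia make, rose by 1.16, 1.65 and 1.63 on the log2 scale. C4b, the complement component cleaved next, rose from 21.2 and 14.3 to 97.3 and 130 CPM (2.69 ± 0.27), though its reads may be shared with the near-identical gene C4a. The class I heavy chain H2-D1 was listed at 13.03 and 0 CPM in the controls and 42.2 and 0 CPM in rNLS8, and its 2 sections at 0 leave it without a usable fold change. The count was 5 without rNLS8 section 1, 4 without rNLS8 section 2, 3 by DESeq2 and 2 of 7 tested in spots with at least 2 layer 5 neighbours.

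Of 17 tested genes of disease-associated microglia, 7 rose and none fell, with a median of 1.17. Cst7, the protease inhibitor cystatin F, had 1 UMI in the controls and 75 in rNLS8 (0 and 0.622 against 11.98 and 36.6 CPM), or 61.5 times as many (counting interval 10.7 to 2462). Tyrobp, the signalling adaptor of TREM2, rose from 4.89 and 9.33 to 35.5 and 40.2 CPM, Cd68, a lysosomal marker of phagocytes, from 6.52 and 6.84 to 30.2 and 30.7 CPM, and Ctsd, the protease cathepsin D, from 99.4 and 124 to 270 and 333 CPM.

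Trem2 itself, the receptor that drives this state, stood at 11.4 and 11.2 against 20.1 and 33.6 CPM and did not pass (adjusted p = 0.133), and Apoe, which astrocytes also make, at 931 and 1130 against 1204 and 1232 CPM (adjusted p = 0.504). Cd52, Ctsz and Fcer1g were the other called members. None of 10 homeostatic microglial genes passed, though all 10 had a log2 fold change above 0 (median 0.51, against 51.5% of all genes tested above 0). Csf1r, the receptor that microglia need to survive, stood at 51.3 and 64.1 against 73.3 and 95.8 CPM (adjusted p = 0.254). The summed level of this list was 258 and 334 CPM in the controls and 434 and 517 CPM in rNLS8. The disease-associated list had 6 called genes without rNLS8 section 1, 5 without rNLS8 section 2, 4 with spots chosen by Bcl11b, Crym, Pcp4 and Npr3, 3 in thinned spots, 2 by DESeq2, and 0 of 13 tested when layer 5 spots had to have at least 2 layer 5 neighbours.

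Markers of border macrophages and leukocytes stayed near zero. Of 16 listed, 2 passed the filter on low counts, 9 were at 0 in both controls and 7 at 0 in all 4 sections. The one called, Ccl5, a chemokine made by T cells and activated microglia, had no UMI in the controls and 11.98 and 11.7 CPM (41 UMI) in the rNLS8 sections, at least 5.49-fold higher by the same floor (adjusted p = 0.0168). The summed level of the list overlapped between the groups, at 32.1 and 56.9 CPM in the controls and 55.8 and 59.6 CPM in rNLS8.

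Of 11 tested reactive genes 2 rose (median 0.60), while none of 12 general astrocyte markers passed (median 0.13). Gfap, the intermediate filament of reactive astrocytes, went from 121 and 95.8 CPM to 474 and 678 CPM (2.42 ± 0.22, adjusted p = 0.00107), and S100a6, a calcium-binding protein, from 29.3 and 30.5 to 77.6 and 92.1 CPM. Serpina3n, a secreted protease inhibitor, stood at 6.52 and 6.22 against 15.8 and 21.2 CPM without passing (adjusted p = 0.100). Gfap and S100a6 were also called with either rNLS8 section left out. Of the general markers, Aqp4, the water channel of astrocyte endfeet, was at 22.0 and 14.9 against 33.5 and 33.6 CPM (adjusted p = 0.161) and Sox9 at 81.5 and 59.1 against 87.2 and 118 CPM.

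Other glial and vascular lists held no called gene: none of 14 oligodendrocyte (median 0.26), 5 oligodendrocyte precursor (0.15), 11 endothelial and mural (-0.05) and 5 meningeal and choroid plexus genes (0.13). Sox10, the transcription factor of the oligodendrocyte lineage, was nearest at 58.6 and 67.2 against 119 and 103.8 CPM (adjusted p = 0.0679). Among 22 lysosome and autophagy genes 3 rose (median 0.51). Ctss, the microglial protease cathepsin S, went from 50.5 and 67.2 to 205 and 213 CPM (1.81 ± 0.20, adjusted p = 0.00164), Grn, the precursor of the lysosomal granulins and itself a dementia gene, from 72.5 and 67.2 to 146 and 145 CPM, and Npc2, a cholesterol carrier of the lysosome, from 93.7 and 105 to 189 and 173 CPM. Psap, the abundant saposin precursor, stood lower, at 3870 and 2896 against 2335 and 2379 CPM, without passing (adjusted p = 0.180). Only 1 gene of the list was called without rNLS8 section 1, and 1 without rNLS8 section 2.

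**Figure D3:**
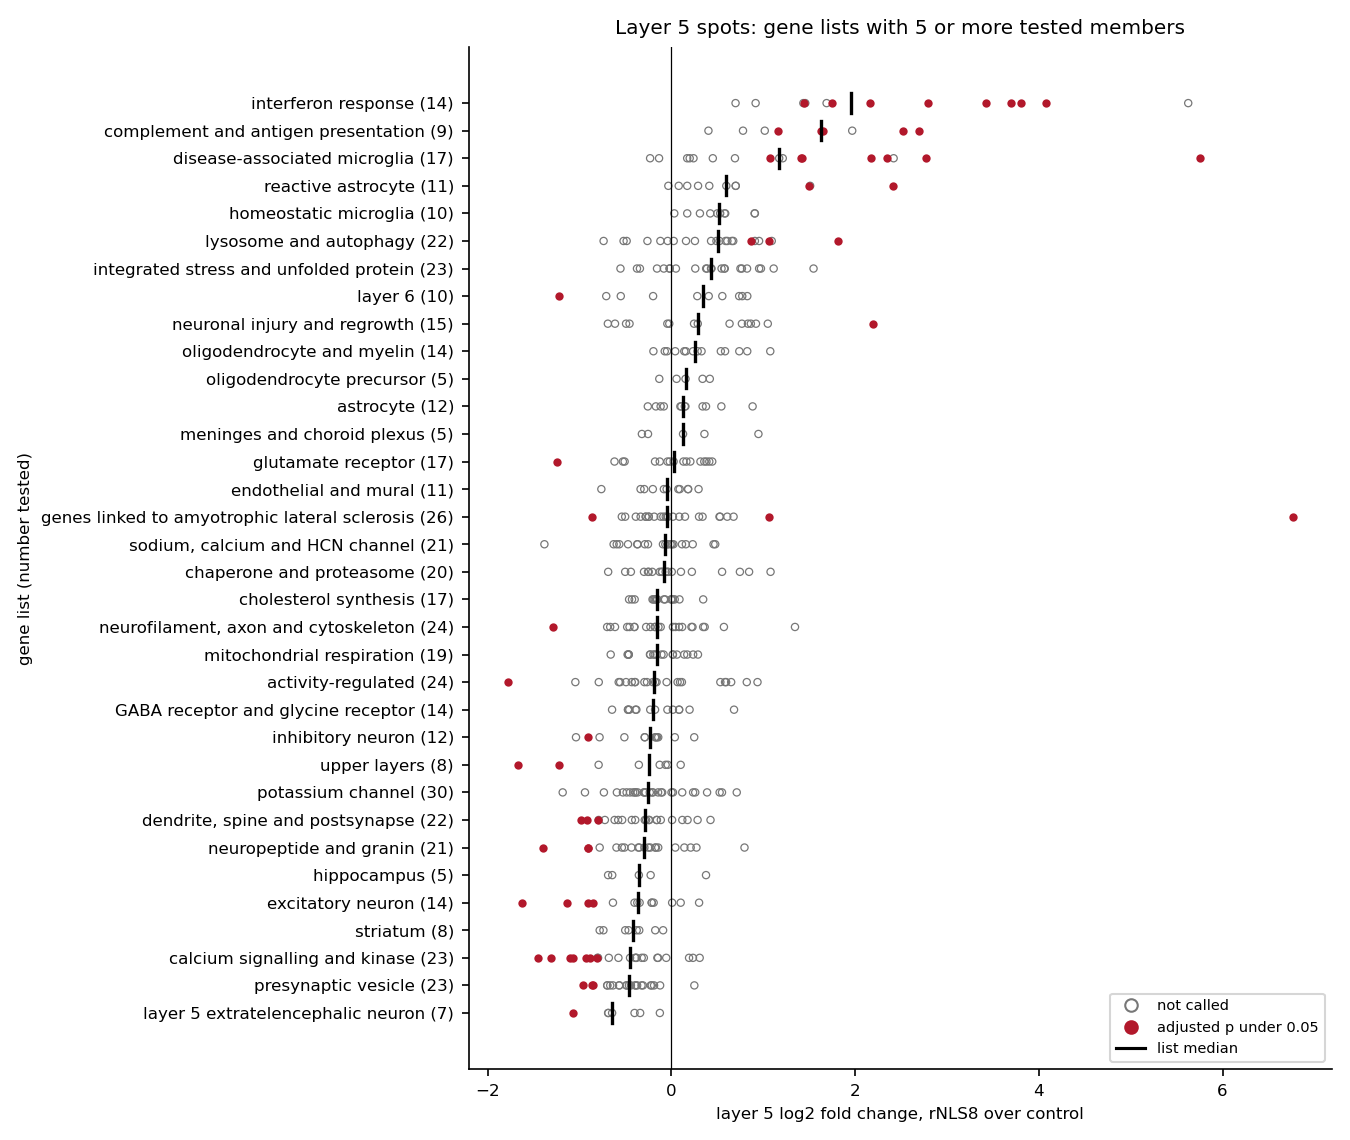
Log2 fold change of rNLS8 over control in layer 5 spots for each tested gene of the lists with 5 or more tested members, red where the adjusted p was under 0.05, with the list's median as a black bar. Interferon, complement and antigen presentation, and disease-associated microglia lead on the right (medians 1.96, 1.63 and 1.17), and the layer 5 extratelencephalic, presynaptic and calcium signalling lists on the left (-0.65, -0.46 and -0.45).

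All 7 tested identity markers of extratelencephalic neurons had a log2 fold change below 0 (median -0.65), while 51.5% of all genes tested were above 0. Of the 7, 1 was called as lower, where 0.864% of all genes tested were. It was Pcp4, which was called without rNLS8 section 1 but not without rNLS8 section 2: 640 and 735 CPM in the controls against 371 and 280 CPM (-1.07 ± 0.18, adjusted p = 0.0188). Pou3f1 stood at 95.3 and 103 against 69.0 and 53.4 CPM, and Bcl6, a transcriptional repressor, at 48.1 and 61.0 against 35.0 and 35.1 CPM, both without passing (adjusted p = 0.128 and 0.187). The summed level of the list was 784 and 943 CPM in the controls and 540 and 433 CPM in rNLS8. The median level of the selecting genes per chosen spot was also lower in rNLS8, at 371 and 412 CPM against 561 and 453 CPM. The part of spot selection in these falls was not tested. The list's median was -0.60 over the 5 members tested in upper-layer spots and -0.60 over the 7 tested in layer 6 spots.

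No intratelencephalic gene of 3 tested (median -0.53) and no near-projecting gene of 2 (0.17) passed. Hsd11b1, a steroid dehydrogenase, stood at 12.2 and 19.9 against 9.58 and 11.0 CPM. Of the upper-layer genes 2 of 8 fell, Lamp5 (173 and 258 against 72.4 and 62.1 CPM), a membrane protein of upper-layer and some inhibitory neurons, and Calb1 (325 and 256 against 127 and 121 CPM), a calcium buffer. Of 10 layer 6 genes, Rprm fell (106 and 128 against 52.2 and 47.5 CPM) while 6 had a log2 fold change above 0, so the list had a median of 0.34. Without rNLS8 section 1 the upper-layer list again had 2 calls and the layer 6 list 0, and without rNLS8 section 2 they had 1 and 0. Striatal, hippocampal and claustral markers held no called gene (medians -0.42, -0.35 and -0.24). The layer 4 genes Rorb, Scnn1a and Rspo1 were too low to test.

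The largest falls in layer 5 included several genes of low level. Igfn1, an immunoglobulin-domain protein first described in muscle, fell from 40.7 and 40.4 to 8.15 and 9.50 CPM (-2.21 ± 0.30, adjusted p = 0.00764). Krt12, a keratin, and Muc3a, a mucin, fell by 1.83 and 1.99 on the log2 scale, the serine protease gene Prss22 by 2.38 and the kinase gene Plk5 by 1.59. Nrn1 and Sowaha stood higher. Nrn1, neuritin, a secreted promoter of neurite growth and synapse maturation, went from 509 and 475 to 143 and 176 CPM (-1.63 ± 0.17, adjusted p = 0.00164). Sowaha went from 199 and 183 to 59.4 and 61.4 CPM. Nptx2, a pentraxin that gathers AMPA receptors at synapses, went from 35.0 and 38.6 to 11.0 and 10.2 CPM. In each of these the rNLS8 sections lay under both controls, as the rule for the largest falls required. Prss22 and Muc3a no longer passed without rNLS8 section 1 (adjusted p = 0.427 and 0.05003), nor did Prss22 without rNLS8 section 2 (0.227).

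Calcium signalling held the most called genes of any neuronal list, with 7 of 23 lower and none higher (median -0.45). Camkk2, the kinase that activates CaMKI, CaMKIV and AMPK, went from 473 and 417 CPM to 179 and 146 CPM (-1.45 ± 0.18, adjusted p = 0.00345). Prkcb, protein kinase C beta, went from 857 and 701 to 323 and 303 CPM (-1.31 ± 0.17, adjusted p = 0.00578). The others were Camk4, Pcp4, Itpka, the calcineurin subunit Ppp3ca and the calcium pump Atp2a2, with log2 fold changes from -1.11 to -0.81. The list had 3 called genes without rNLS8 section 1 and 1 without rNLS8 section 2. It had 9 lower in upper-layer spots, where 2.09% of all genes fell, and 3 in layer 6 spots, where 0.899% did.

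A few synaptic genes fell on both sides of the synapse. On the presynaptic side, 3 of 23 fell and 17 had non-overlapping groups with rNLS8 lower, against 23.8% of all genes tested (median -0.46). Snap25, the SNARE protein of vesicle fusion, went from 4579 and 5376 to 2973 and 2522 CPM (-0.86 ± 0.18, adjusted p = 0.0403), Stx1a, its partner syntaxin, from 177 and 195 to 94.4 and 97.2 CPM, and Unc13a, the vesicle priming factor in which TDP-43 loss admits a cryptic exon in human neurons, from 228 and 228 to 126 and 124 CPM. On the postsynaptic side, Actn1, Icam5 and Baiap2 fell among 22 tested (median -0.28). Of the glutamate receptors 1 of 17 fell, the AMPA receptor subunit Gria3 (569 and 424 against 206 and 214 CPM), and the list's median was 0.02. Without rNLS8 section 1 no gene of the presynaptic, postsynaptic or glutamate receptor lists was called by edgeR, while DESeq2 on all 4 sections called 8, 5 and 1 lower.

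Of 14 excitatory neuron genes 4 fell (Nrn1, Nrgn, Cck and Snap25; median -0.36), and the summed level of the list was 13570 and 15440 CPM in the controls against 10470 and 9854 CPM. Of 21 neuropeptide and granin genes 3 fell: Scg5, the chaperone of prohormone convertase 2, from 691 and 671 to 258 and 259 CPM, the granin Chgb, and Cck, the peptide cholecystokinin, which also is the 1 called gene of 12 on the inhibitory neuron list. Nefl, the neurofilament light chain, was the only called one of 24 neurofilament, axon and cytoskeleton genes, at 799 and 755 against 317 and 317 CPM (-1.29 ± 0.16, adjusted p = 0.00345). The excitatory, peptide and inhibitory lists had 2, 2 and 0 calls without rNLS8 section 1, and 1, 1 and 0 without rNLS8 section 2. Nefm (343 and 372 against 266 and 171 CPM) and Nefh (169 and 205 against 145 and 137 CPM) did not pass.

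Of 24 activity-regulated genes, Nptx2 alone passed, though not without rNLS8 section 2, and the immediate early genes went both ways: Egr1 stood at 456 and 606 against 404 and 309 CPM (adjusted p = 0.170) and Fos at 52.9 and 33.0 against 69.0 and 63.6 CPM (adjusted p = 0.219). No gene passed among 21 sodium, calcium and HCN channel genes (median -0.07), 30 potassium channel genes (-0.26) and 14 GABA and glycine receptor genes (-0.20). Among the nearest were Scn4b, a sodium channel beta subunit, at 92.0 and 144 against 59.9 and 28.5 CPM (adjusted p = 0.0581), and Kcnv1, a modulatory potassium channel subunit, at 41.5 and 36.7 against 16.8 and 17.5 CPM (adjusted p = 0.0574).

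Stress genes did not pass. None of 23 integrated stress and unfolded protein genes passed, with a median of 0.43. The amino acid transporter chain Slc3a2 stood at 92.0 and 97.7 against 146 and 175 CPM (adjusted p = 0.0760), and Atf4, the transcription factor of the integrated stress response, at 7.33 and 36.7 against 68.0 and 68.0 CPM (adjusted p = 0.106), where the controls differed 5-fold from each other. Of 15 injury and regrowth genes 1 rose, Tnfrsf12a, the receptor of TWEAK, from 8.96 and 9.95 to 30.7 and 59.2 CPM (2.20 ± 0.39, adjusted p = 0.0229). Chaperone and proteasome (20 tested, median -0.08), mitochondrial (19, -0.16) and cholesterol synthesis genes (17, -0.16) held no called gene. Of 26 genes linked to amyotrophic lateral sclerosis, Tardbp and Grn rose and Unc13a fell (median -0.05). Tardbp was the 1 of these called without rNLS8 section 1, and none was called without rNLS8 section 2, nor was Tnfrsf12a (adjusted p = 0.122).

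Some called genes belonged to no list. Pdrg1, a small protein regulated by p53 and DNA damage, had among the smallest adjusted p, rising from 105 in both controls to 365 and 401 CPM (1.86 ± 0.17, adjusted p = 0.00107). Zfp180, a zinc finger protein, stood at 5.70 and 0 against 32.1 and 21.9 CPM. Of the falls, Rgs4, which shortens G protein signalling, went from 1214 and 961 to 471 and 363 CPM, and Hapln4, a link protein of perineuronal matrix, from 418 and 432 to 168 and 154 CPM. These were named after their values were seen, except Zfp180, which the naming rule gave.

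Each layer 5 spot was also thinned to 2000 UMI, and the share of spots with at least 1 UMI of a gene was taken. Gfap was detected in 18.6% and 19.2% of control spots and in 58.1% and 66.2% of rNLS8 spots. B2m went from 10.3% and 13.5% to 54.1% and 50.3%, and C4b from 4.12% and 4.81% to 19.4% and 22.1%. Gfap and B2m were thus detected in a large part of the rNLS8 spots. At this depth the share largely follows a gene's mean level, so a low share does not show that few spots carry a change. Cst7 was detected in none of the 194 and 208 control spots, with exact (Clopper-Pearson) 95% upper limits of 1.88% and 1.76%, and in 3.15% and 7.18% of rNLS8 spots, and Ccl5 in none and in 1.35% and 1.54%.

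Among neuronal genes, the share with Nefl was 65.0% and 70.2% in the controls and 51.8% and 45.6% in rNLS8, and with Calb1 36.1% and 43.3% against 23.9% and 23.1%. The homeostatic microglial receptor P2ry12 overlapped between the groups, at 2.58% and 3.85% against 5.41% and 3.08%, and Mbp, the myelin basic protein, was found in every spot. With 2 sections against 2, the exact two-sided permutation test over sections cannot go below p = 0.333, which each of the non-overlapping genes here reached. Without thinning the mean share with Gfap was 41.9% in the controls and 90.8% in rNLS8, and with Nefl 93.4% and 81.3%.

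**Figure D4:**
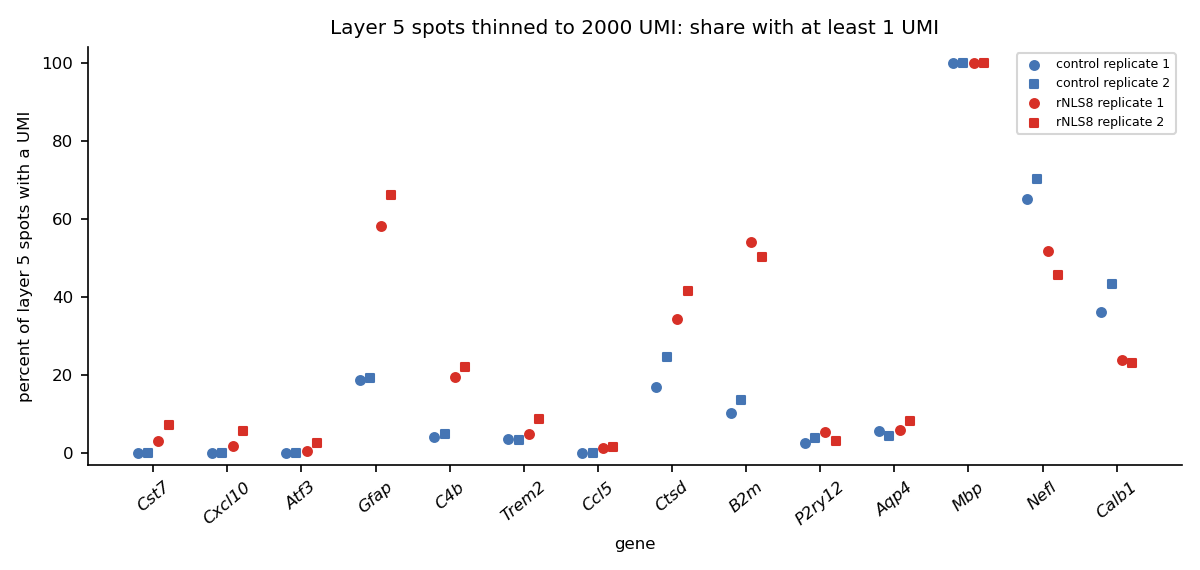
Percent of layer 5 spots with at least 1 UMI of each gene after thinning every spot to 2000 UMI, 1 point per section, controls in blue and rNLS8 in red. Gfap and B2m show the widest gaps (about 19% against 58.1% and 66.2%, and 10.3% and 13.5% against 54.1% and 50.3%), Mbp is at 100% throughout, and the points of P2ry12 overlap.

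Whether the rNLS8 effect differed between layer 5 and upper-layer spots was tested as an interaction within sections, leaving out spots in both sets and all selecting genes. Of 10017 genes, 22 (0.220%) passed, 12 with a difference above 0 and 10 below, and 768 had an unadjusted p under 0.05. In 21 of the 22 the contrast between layer 5 and upper layers was smaller in rNLS8 than in control, as it was in 58.0% of all genes tested. Npy, neuropeptide Y of inhibitory neurons, was lower in layer 5 than in upper-layer spots of the controls (334 and 483 against 547 and 582 CPM) and higher in rNLS8 (289 and 295 against 213 and 227 CPM), a difference of 0.87 ± 0.12 (SE, adjusted p = 7.46e-05). Nefh, the neurofilament heavy chain whose promoter drives the transgene, was at 175 and 212 CPM in layer 5 and 94.2 and 97.4 CPM in upper-layer spots of the controls, and at 150 and 140 against 131 and 109 CPM in rNLS8 (-0.77 ± 0.16, adjusted p = 0.0154).

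Other genes among the 5 largest differences in each direction followed the same form. Prag1, Wfs1 and Tsnax were lower in layer 5 of the controls, and Slc24a3, a sodium, calcium and potassium exchanger, Cnih3, an AMPA receptor auxiliary subunit, Hs3st2, a heparan sulfate sulfotransferase, and Ndn, necdin, were higher there. For Prag1 the log2 contrast of layer 5 over upper layers was -1.36 in control and -0.21 in rNLS8, and for Cnih3 1.05 and 0.20. The calls depended on depth and sections: 0 genes passed when spots were thinned to 2000 UMI (442 with an unadjusted p under 0.05, and all 22 genes with the same sign), 0 by DESeq2 (48 with an unadjusted p under 0.05), 1 without rNLS8 section 1, where Npy had an adjusted p of 0.0855, and 5 without control section 2. The upper-layer spots were also less compact in rNLS8, and the extratelencephalic markers' median contrast against upper layers was 0.90 and 1.17 in the controls and 0.34 and 0.61 in rNLS8. The part of spot selection in these differences was not tested.

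**Figure D5:**
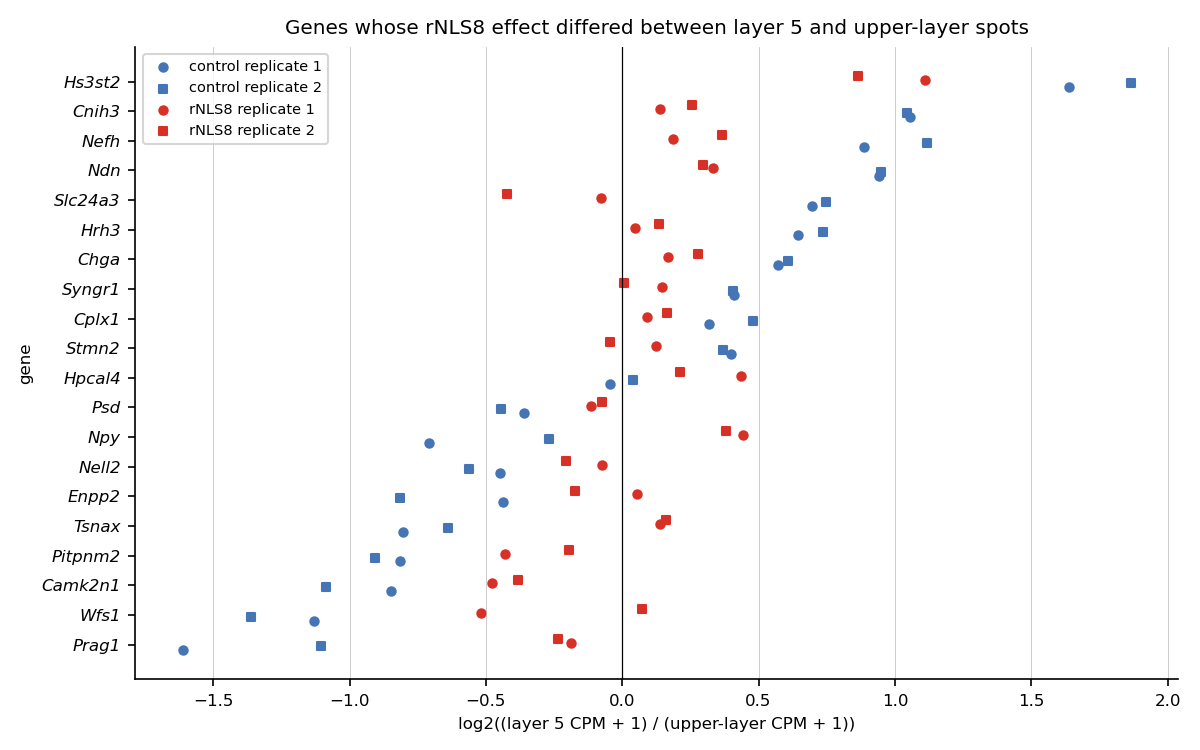
Log2 ratio of the level in layer 5 to that in upper-layer spots (CPM + 1) for 20 of the 22 genes whose rNLS8 effect differed between them, 1 point per section, controls in blue and rNLS8 in red. The mean of the rNLS8 points lies closer to 0 than that of the control points for 19 of the 20 genes shown, Hpcal4 being the exception.

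Against layer 6 spots, 2 of 9962 genes (0.0201%) passed, and 595 had an unadjusted p under 0.05. Npy stood at 310 and 506 CPM in layer 5 and 440 and 632 CPM in layer 6 of the controls, and at 293 and 315 against 236 and 228 CPM in rNLS8 (0.77 ± 0.11, adjusted p = 2.78e-05). Stxbp6, a syntaxin-binding protein, was at 107 and 120 CPM in layer 5 and 53.6 and 48.0 CPM in layer 6 of the controls, and at 43.0 and 38.3 against 46.9 and 37.5 CPM in rNLS8 (-1.24 ± 0.24, adjusted p = 0.0183). In rNLS8 its levels in layer 5 and layer 6 lay close together. A fit without rNLS8 section 1 gave 10 genes, among them Npy but not Stxbp6 (adjusted p = 0.263), and when spots were thinned or by DESeq2 0 passed (319 and 17 with an unadjusted p under 0.05).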

How the data were processed

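Mouse brain sections, 2 control and 2 rNLS8, were profiled on Visium arrays. The deposited UMI counts per gene and spot were made with Space Ranger 2.1.0, per the file headers, on mm10, per the submitters' processing notes. The chemistry and the probe set are not stated in any source used here. Spots were chosen per section as described, raw counts were summed per section, and the 4 sums of 1306937 to 1997302 UMI were compared with edgeR 4.0.16 (TMM, filterByExpr, quasi-likelihood test, Benjamini-Hochberg over all genes tested, R 4.3.3). CPM values are edgeR's, scaled by TMM, but summed lists, marker contrasts between spot sets and the genes that chose the spots are on unscaled totals. Differences between spot sets were tested as interactions with section as a block. The test was tried on simulated data, where it recovered most changed genes but, with a spread that differed from gene to gene, made false calls above the nominal rate. Shares used spots thinned to 2000 UMI and exact binomial intervals, which cover counting error only. A symbol on several features stands for the one with most counts.

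Named genes were the 10 largest rises and falls among called genes of at least 10 CPM in the higher group without overlap, 5 each way for the interactions, and every called member of 39 gene lists, or the 2 of lowest p. Some genes are not reported here, and others were named after their values were seen. The members, lists and rules were chosen with earlier results of these data known. Alternatives changed 1 choice at a time, except DESeq2 1.42.0 (Wald test), which also brought its own scaling and ran on all genes with a count.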

Additional observations from a re-analysis of the deposited data

Results flagged for a closer look

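For 11 results the rNLS8 effect in layer 5 differed from that in another layer by the interaction test. Against upper-layer spots the difference on the log2 scale was 0.87 for Npy, 1.14 for Prag1, 0.87 for Tsnax and 0.97 for Wfs1. It was -0.76 for Hs3st2, -0.63 for Ndn, -0.77 for Nefh, -0.96 for Slc24a3 and -0.87 for Cnih3. Against layer 6 spots it was 0.77 for Npy and -1.24 for Stxbp6.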

How the results depend on the processing

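With 2 sections a group, 1 section decides many calls. The layer 5 count of 136 ranged from 49 to 2072 when 1 section was left out, the upper-layer difference of 22 from 1 to 26, and the layer 6 difference of 2 from 2 to 10. For layer 5, 207 genes were called by DESeq2, 632 with no filter, 82 with the top 25% of spots, 72 with spots chosen by Bcl11b, Crym, Pcp4 and Npr3, 19 with at least 2 neighbouring layer 5 spots, and 86 with at least 2 selecting UMI, an alternative chosen after seeing the data. The upper-layer difference gave 57 genes with the top 25% of spots, 38 with a 5000 UMI minimum, and 0 by DESeq2 or in thinned spots. The layer 6 difference gave 6 with no filter, 5 with the top 25% of spots, 1 with a 500 UMI minimum, and 0 by DESeq2 or in thinned spots. For both differences DESeq2's likelihood-ratio test, added after seeing the data, also called 0. The cause was not tested. Same-numbered sections did not deviate together over all genes tested (correlation -0.086). A single correlation from 2 sections a group cannot exclude that the numbers pair them. A fit with the replicate number as a block called 390, 34 and 11 genes. In every alternative run, each of the 136 genes that could be fitted kept its sign.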
